A study of Mus musculus with 16 samples.

Results

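The peroxiredoxin family of the mouse has 6 genes, Prdx1 to Prdx6, and all 6 were measured among the 33269 gene names of the array. Each gene is represented by its brightest probe, the one with the highest mean signal over the 16 arrays. The probes were thus chosen by their mean signal, which is not used as a result. No member was left out by the filter on dim signals, because all 6 probes were well above background on 16 of 16 arrays.

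Total RNA of female C57Bl/6 mice was hybridised to one-colour arrays, 4 arrays in each of 4 groups. The groups were hepatic inflammatory cells from mice given adipose tissue-derived stem cells (ADSC), inflammatory cells from mice given phosphate-buffered saline (PBS), whole liver from ADSC mice and whole liver from PBS mice. Every mouse, PBS mice included, had cirrhosis from 40 weeks on an atherogenic high-fat diet, and there was no group without the diet. ADSC were cultured from inguinal fat of GFP-transgenic donors and 100000 cells were given per injection into the spleen, with 2 injections, and samples were taken 2 weeks after the last one. ADSC arrays carry the numbers 7 to 10 and PBS arrays 11 to 14 in both sample types. Whether each array stands for a separate animal is not given, so p-values measure the spread between samples, which may be partly technical.

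Peroxiredoxins are thiol enzymes that reduce hydrogen peroxide, organic peroxides and peroxynitrite. A cysteine of the active site is oxidised by the peroxide, and most members are then reduced again by thioredoxin, which takes its electrons from NADPH through thioredoxin reductase. Prdx1 and Prdx2 work in the cytosol, Prdx3 in mitochondria and Prdx4 in the endoplasmic reticulum, whereas Prdx5 is found in mitochondria, peroxisomes and cytosol. Prdx6 uses a single catalytic cysteine, is reduced by glutathione and also has phospholipase activity. Hepatocytes are rich in these enzymes, and phagocytes make the peroxides they remove.

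Within groups, array correlations ran from 0.921 to 0.984, and 51.6% to 66.4% of spots were well above background. The sample types carried most of their markers. In inflammatory cells against liver, 9 of 9 tested T and NK cell genes and 12 of 13 neutrophil genes were higher, and 10 of 10 hepatocyte genes were lower. Of the T and NK cell genes, Cd4, Ncr1 and Gzma stayed dim in every liver. They entered the test through inflammatory cell arrays alone and could hardly be called lower, so the 9 of 9 is partly set by the filter. Among 8 monocyte and macrophage markers, 6 lay higher and 0 lower. Among 10 tested B and plasma cell markers, 8 lay higher and 2 lower. Kupffer cell markers were mixed, with 3 of 7 higher and 2 lower (Slc40a1 at -2.63 and C6 at -1.04). The B cell marker Fcer2a was dim in every PBS liver. The Kupffer cell marker Timd4 and the neutrophil marker Prtn3 were dim in every ADSC liver. Over all tested genes, 49% were higher and 35.2% lower. Digestive enzymes of the exocrine pancreas had mean log2 levels of 8.69 in inflammatory cells ADSC 10 and 6.54 and 8.56 in inflammatory cells PBS 11 and PBS 13, against -1.61 to 2.58 in the other 5 inflammatory cell arrays. These 3 arrays stand apart from the rest and results are also given without them. In the 8 livers the mean level was -4.88 to -3.71, so pancreas transcripts were not confined to these 3 arrays. The inflammatory cell arrays kept had 1.88 and 2.58 in PBS 12 and PBS 14, against -1.61 to 1.13 in ADSC 7 to 9. Results without the 3 arrays are thus not free of pancreas transcripts. Levels are log2 signal minus the 75th percentile of the array, and levels of different genes are not compared, since probes differ in efficiency. Genes were tested with limma, and a gene is called where the p-value adjusted by Benjamini-Hochberg over all genes tested is under 0.05.

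Prdx5 was the member called between ADSC and PBS in inflammatory cells, so the 250 bases upstream of its start site are shown. Those of Prdx1 stand beside them because Prdx1 is a textbook target of the stress factor NRF2. The sequences are RefSeq promoters of build GRCm38.p6, Prdx5 at chr19:6910107-6910356 on the minus strand and Prdx1 at chr4:116685349-116685598 on the plus strand. Capitals mark a match to the core of the antioxidant response element, TGACNNNGC on either strand.
Prdx5: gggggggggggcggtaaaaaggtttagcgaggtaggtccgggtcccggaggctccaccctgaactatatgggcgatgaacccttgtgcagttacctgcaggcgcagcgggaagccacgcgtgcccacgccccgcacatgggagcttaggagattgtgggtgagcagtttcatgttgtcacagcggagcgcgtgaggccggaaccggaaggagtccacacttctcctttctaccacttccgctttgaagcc
Prdx1: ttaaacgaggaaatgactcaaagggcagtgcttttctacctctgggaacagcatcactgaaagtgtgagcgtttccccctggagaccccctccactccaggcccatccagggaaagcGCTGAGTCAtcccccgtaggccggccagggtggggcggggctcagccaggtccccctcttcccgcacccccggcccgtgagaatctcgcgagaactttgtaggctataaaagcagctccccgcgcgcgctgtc
The Prdx1 window holds the match GCTGAGTCA with its first base 133 bases before the start site, and the Prdx5 window holds none. Of 32817 promoter windows of this length, 10.2% hold the core. Promoters of 5 members were in the RefSeq table, and Prdx6 was not among them. Among these, Prdx3 has TTGCATAA, a match to the CCAAT/enhancer binding protein motif TTGCNNAA, 101 bases before its start, a motif held by 9.57% of windows. Prdx4 has the E-box CACGTG 52 bases before its start, held by 6.02% of windows. Neither Prdx5 nor Prdx2 has any of these motifs, or GAGGAAG, the motif of the myeloid factor PU.1, held by 10.6%, or the NRF1 motif, held by 3.73%. All were searched on both strands, and CACGTG reads the same on both. These are letter matches in a short window and are no measure of factor binding.

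Inflammatory cells of ADSC mice were set against those of PBS mice to ask which genes differed after the treatment. Prdx5 had levels of 3.47, 3.67, 3.43 and 3.42 in ADSC 7 to 10, against 5.19, 5.58, 5.47 and 4.75 in PBS 11 to 14. The 4 ADSC arrays lay close together and all lay below the 4 PBS arrays. Prdx5 fell 3.37-fold, a log2 difference of -1.75 ± 0.23 (SE, 4 arrays against 4, limma adjusted p = 0.00818), which placed it at rank 31 of 20167 genes by p-value. It was the 1 called member of 6, against 1.09% of all tested genes called as lower. The exact two-sided permutation test of the 8 Prdx5 values gave p = 0.0286, the smallest that 4 against 4 arrays can give. The other 5 members were not called, and the median difference of the 6 was -0.41, beside 0.03 over all genes.

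Prdx1, the cytosolic enzyme that also acts as a chaperone, had 4.24, 3.69, 3.74 and 3.89 in ADSC 7 to 10, against 4.04, 4.42, 5.30 and 4.49 in PBS 11 to 14. The groups overlapped through ADSC 7 and PBS 11, and the difference was -0.67 ± 0.28 (SE, 4 against 4, limma adjusted p = 0.251), with a 95% interval from -1.30 to -0.04. Prdx3, the mitochondrial member, had 1.91, 1.60, 1.77 and 1.75 in ADSC 7 to 10, against 1.60, 1.97, 2.85 and 2.04 in PBS 11 to 14. Its groups overlapped too, and PBS 13 was the highest array for both Prdx1 and Prdx3. Its difference was -0.36 (95% interval -0.96 to 0.24, limma adjusted p = 0.497). With limma's array weights, which give less weight to arrays far from their group, Prdx1 was called as well (-0.61, adjusted p = 0.0339), but that fit called 5147 of 20167 genes, 2103 of them lower.

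Prdx4, the member of the secretory pathway, had 1.08, 1.15, 1.28 and 2.26 in ADSC 7 to 10, against 1.41, 1.68, 3.03 and 1.45 in PBS 11 to 14. The highest array of each group, ADSC 10 and PBS 13, was one of the arrays with most pancreas transcripts, whereas PBS 11, the third pancreas-rich array, had the lowest Prdx4 level of its group. None of the 10 pancreas genes was called between the groups. Their summed relative signal ran from 6.08 to 4890 in ADSC and from 45.8 to 4850 in PBS. This sum was 4890 in ADSC 10, 4850 in PBS 13 and 1130 in PBS 11. Its part in the Prdx4 values was not tested. The Prdx4 difference was -0.45 (95% interval -1.32 to 0.43, limma adjusted p = 0.567), and -0.40 without the 3 pancreas-rich arrays.

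Prdx2, which is abundant in red cells, had 4.44, 5.64, 5.87 and 5.89 in ADSC 7 to 10, against 5.21, 5.07, 5.76 and 5.19 in PBS 11 to 14. Prdx6 had 5.22, 4.08, 4.06 and 4.24 in ADSC 7 to 10, against 4.79, 4.64, 4.29 and 4.94 in PBS 11 to 14. In ADSC 7, Prdx2 was the lowest and Prdx6 the highest of all 8 inflammatory cell arrays. The differences were 0.15 for Prdx2 (95% interval -0.59 to 0.89) and -0.26 for Prdx6 (-0.91 to 0.38), with limma adjusted p = 0.848 and 0.662. The mean log2 level of 8 red cell genes was 0.45 in ADSC 7 and 3.01 to 3.17 in the other ADSC arrays, against 0.89 to 2.08 in PBS arrays. Their summed relative signal ran from 997 to 4290 in ADSC and from 1160 to 1970 in PBS, 1 of 7 tested red cell genes was called, as higher, and Epb42 failed to clear the background on all 4 PBS arrays. Among PBS arrays the lowest red cell gene mean, 0.89, was in PBS 13, which had the highest Prdx2 and the lowest Prdx6 of its group. By summed signal PBS 13 was not the lowest, with 1780 between the 1970 of PBS 11 and the 1230 of PBS 12. The part of red cell genes in the Prdx2 and Prdx6 values was not tested.

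**Figure D1:**
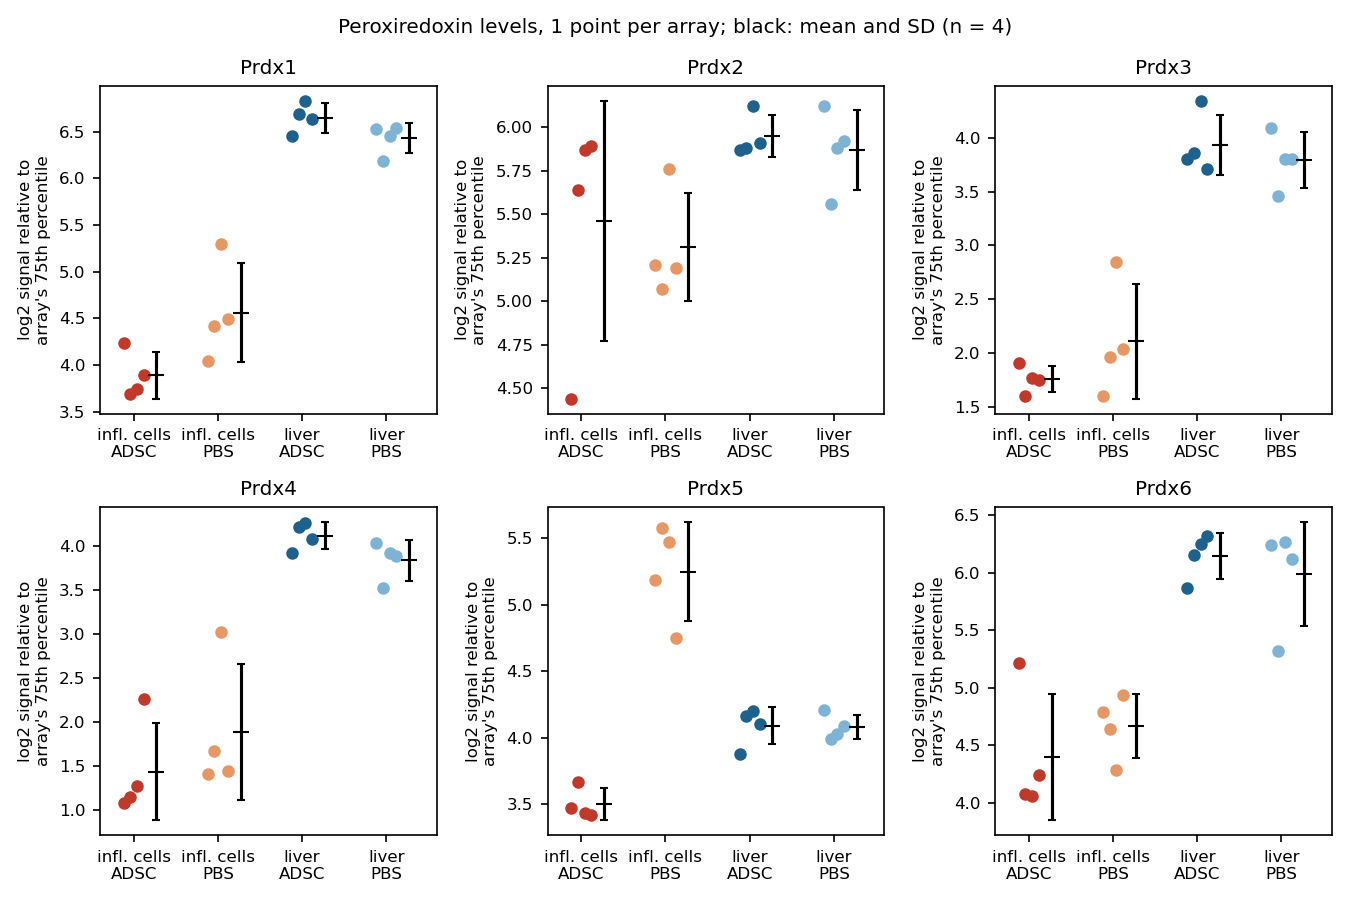
Levels of the 6 peroxiredoxins, 1 panel per gene, as log2 signal relative to the 75th percentile of each array, with 1 point per array and the mean ± SD (n = 4) in black. Prdx5 lies between 3.42 and 3.67 in inflammatory cells of ADSC mice and between 4.75 and 5.58 in those of PBS mice, with all 8 livers in between, and the other 5 members have their highest mean in ADSC livers.

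The fall of Prdx5 went with a fall of neutrophil genes, and in RNA of mixed cells fewer cells of a type and less RNA per cell cannot be told apart. Of 13 neutrophil genes, 11 were called lower in ADSC, with Ctsg (cathepsin G) at -4.54 and S100a8 (a calprotectin subunit) at -2.81, and none was below background throughout a group. Their summed relative signal was 411 to 616 in ADSC and 1280 to 2620 in PBS, with mean log2 levels of 1.28 ± 0.37 and 4.84 ± 0.89 (SD, n = 4 each). Of 8 monocyte and macrophage genes 3 were lower, with summed signals of 398 to 497 in ADSC and 699 to 1180 in PBS. Of 7 Kupffer cell genes 2 were lower, with sums of 37.7 to 77.8 in ADSC and 92.8 to 239 in PBS. Markers of other cells lay higher in the same ADSC arrays. B and plasma cell genes had mean log2 levels of 1.78 to 2.32 in ADSC and 0.63 to 1.56 in PBS, with no overlap, and summed signals of 85.7 to 152 in ADSC and 35.6 to 111 in PBS. None of the 10 tested was called, and 9 estimates were above 0. Hepatocyte genes had mean log2 levels of 0.89 to 2.13 in ADSC and -0.10 to 0.97 in PBS, with summed signals of 65.9 to 174 in ADSC and 38.0 to 81.7 in PBS. None of these 10 was called either, and 9 estimates were above 0. T and NK cell genes overlapped, with mean log2 levels of 1.43 to 1.68 in ADSC and 1.32 to 2.19 in PBS. The part of these cell types in the Prdx5 fall in inflammatory cells was not tested.

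In whole liver the neutrophil genes lay lower as well, and Prdx5 was not called. Of 12 tested neutrophil genes 0 were called in limma, but their median difference was -3.33, the 12 estimates were below 0, and their summed signal was 28.0 to 71.2 in ADSC livers and 131 to 872 in PBS livers. Prtn3 was not well above background on any ADSC liver. Prdx5 had 3.88, 4.16, 4.20 and 4.10 in ADSC livers 7 to 10, against 4.21, 3.99, 4.03 and 4.09 in PBS livers 11 to 14. The groups overlapped and their means were 4.09 ± 0.14 and 4.08 ± 0.09 (SD, n = 4 each). Hepatocyte genes had summed signals of 1340 to 1920 in ADSC livers and 1070 to 1980 in PBS livers. The part of neutrophils or hepatocytes in the liver level of Prdx5 was not tested.

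**Figure D2:**
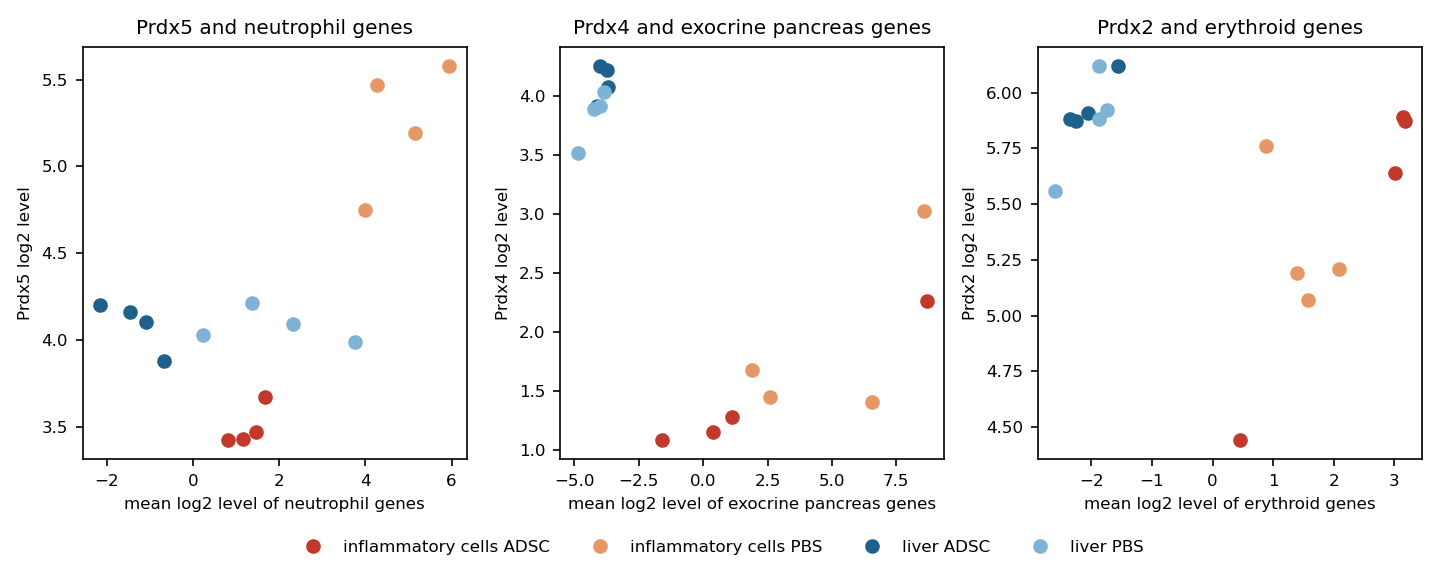
Level of a peroxiredoxin (vertical axis, log2 relative to the 75th percentile) against the mean log2 level of a marker list (horizontal axis) in each of the 16 arrays, for Prdx5 with neutrophil genes, Prdx4 with exocrine pancreas genes and Prdx2 with red cell genes. In inflammatory cells the 4 PBS arrays are high in both Prdx5 and neutrophil genes, and the 8 livers span -2.16 to 3.77 in neutrophil genes with Prdx5 between 3.88 and 4.21. The relations shown were not tested.

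The Prdx5 call in inflammatory cells held when any 1 array was left out, with differences from -1.92 to -1.64 and adjusted p from 0.00342 to 0.0368. It was lost without the 3 pancreas-rich arrays, where 0 of 18770 genes were called in limma and 4596 had an unadjusted p under 0.05 (Prdx5 -1.64, adjusted p = 0.136), and with slide as a fixed block (-1.82, adjusted p = 0.0722). Arrays lay on 5 slides scanned on 3 days. Within slides that held both treatments, Prdx5 differed by -1.52 on slide 2 (ADSC 8 against PBS 11) and -2.11 on slide 3 (ADSC 7 against PBS 12). Within days it differed by -1.82 on day 2 and by -2.05 on day 3, where PBS 13 was the only PBS array of inflammatory cells.

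In whole liver the same question was asked of the tissue, and no member was called. This compares with 0% of all 17321 tested genes in limma, of which 806 had an unadjusted p under 0.05. The 6 differences ran from 0.01 for Prdx5 to 0.28 for Prdx4, with a median of 0.15 beside 0.04 over all genes, and the limma adjusted p was 0.998 for each. Prdx4 had 3.92, 4.22, 4.26 and 4.08 in ADSC livers 7 to 10, against 4.04, 3.52, 3.92 and 3.89 in PBS livers 11 to 14. These groups overlapped, with a 95% interval of the difference from -0.05 to 0.60. Prdx1 had 6.45, 6.69, 6.83 and 6.64 in ADSC livers, against 6.53, 6.19, 6.45 and 6.54 in PBS livers, a difference of 0.23 with an interval from -0.06 to 0.52.

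Prdx2 had 5.87, 5.88, 6.12 and 5.91 in ADSC livers 7 to 10, against 6.12, 5.56, 5.88 and 5.92 in PBS livers 11 to 14, and the groups overlapped. Prdx3 had 3.8, 3.86, 4.34 and 3.71 in ADSC livers, against 4.09, 3.46, 3.8 and 3.8 in PBS livers. Prdx6 had 5.87, 6.16, 6.25 and 6.32 in ADSC livers, against 6.24, 5.32, 6.27 and 6.12 in PBS livers. PBS 12 was the lowest liver for Prdx1, Prdx2, Prdx3, Prdx4 and Prdx6, and its hepatocyte genes had the lowest mean of the 8 livers, 5.32, with the highest neutrophil mean, 3.77. The intervals were -0.24 to 0.39 for Prdx2, -0.28 to 0.56 for Prdx3, -0.24 to 0.26 for Prdx5 and -0.35 to 0.67 for Prdx6. For Prdx5 the interval does not reach the -1.75 of inflammatory cells. On slide 2, where alone both liver treatments were hybridised (ADSC 7 against PBS 13), the differences were 0, -0.01, 0, 0, -0.15 and -0.40 for Prdx1 to Prdx6. On scan day 2, with PBS 13 as the only PBS liver, they were 0.19, 0.11, 0.27, 0.17, 0.01 and -0.21. With array weights Prdx4 was called as higher in ADSC livers (0.27, adjusted p = 0.0443), in a fit that called 3040 of 17321 genes, 1669 of them higher.

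The effect in inflammatory cells minus the effect in liver was tested in 1 fit of all 16 arrays. For Prdx5 it was -1.76 ± 0.25 (SE, 4 arrays per group, limma adjusted p = 0.0272), the third smallest p-value of 22145 genes. Of these genes 0.0316% were called, 7 in all, and Prdx5 was 1 of them. The others were Mfsd7a at -2.04, Smim5 at -1.96, Dstn (an actin-severing factor) at -2.11, Cdk1 (a cell cycle kinase) at -2.35, Ppp1r42 at -3.92 and BC049694 at -2.76, named here because they are so few. The other 5 peroxiredoxins were not called, from -0.90 for Prdx1 (95% interval -1.58 to -0.21, adjusted p = 0.389) to 0.08 for Prdx2 (-0.75 to 0.91, adjusted p = 0.961).

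The size of this Prdx5 difference was steady, but its call was not. Leaving out 1 array gave -1.92 to -1.65, and the adjusted p stayed under 0.05 without inflammatory cells PBS 11, PBS 12, PBS 14, ADSC 7 or ADSC 8. It was 0.051 to 0.104 without any 1 of the 8 livers, inflammatory cells PBS 13, ADSC 9 or ADSC 10. Over all genes, 0 to 46 were called when 1 array was left out. Without the 3 pancreas-rich arrays it was -1.65 (adjusted p = 0.0706). On slide 2, the 1 slide with all 4 groups, the difference was -1.37, from 1 array per group. On scan day 2 it was -1.83, with PBS 13 as the only PBS liver. The call was also lost with slide (-1.90, adjusted p = 0.275) or scan day (-1.96, adjusted p = 0.118) as a fixed block. With either block, or without the 3 pancreas-rich arrays, 0 of all tested genes were called.

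**Figure D3:**
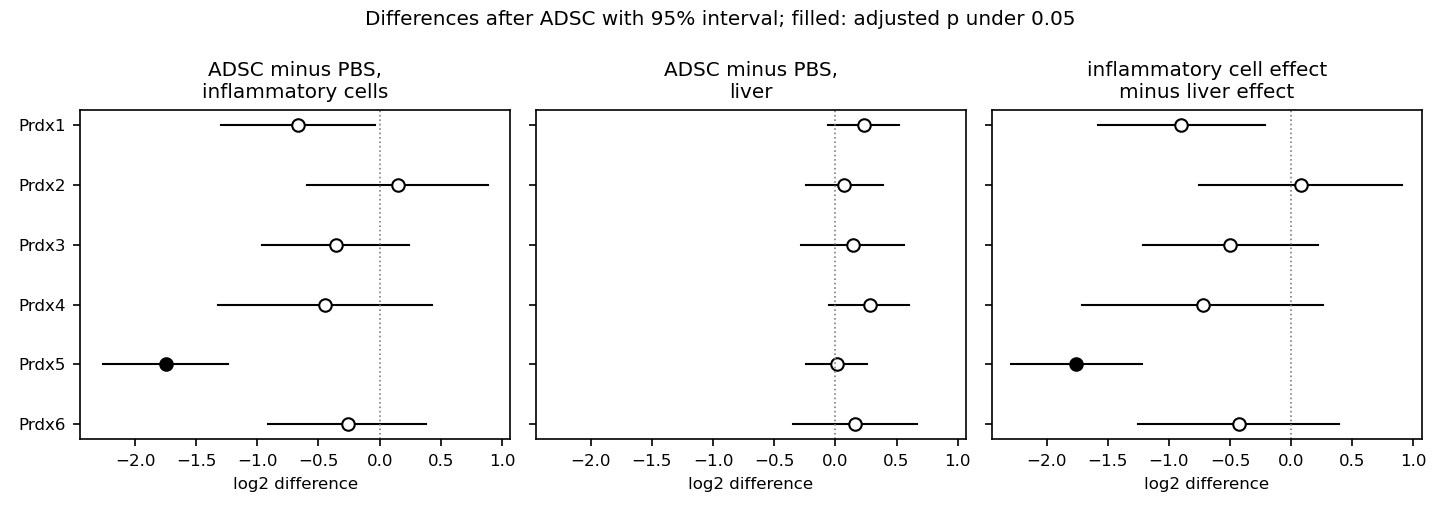
Log2 differences of the 6 peroxiredoxins (rows) with 95% intervals, for ADSC minus PBS in inflammatory cells, ADSC minus PBS in liver, and the first minus the second; filled points have an adjusted p under 0.05. Prdx5 is filled at -1.75 in inflammatory cells and at -1.76 in the difference, and stands at 0.01 in liver.

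Inflammatory cells were set against liver to describe where each member was expressed. Over both treatments 5 members were lower in inflammatory cells, with Prdx1 and Prdx4 at -2.31 each, Prdx3 at -1.92, Prdx6 at -1.53 and Prdx2 at -0.52 (limma adjusted p from 1.47e-09 to 0.0202). Prdx5 was at 0.29 (adjusted p = 0.043). Over all genes 35.2% were called lower and 49% higher, with a median of 0.36, so single calls in this comparison say little. The median of the 6 members was -1.73. Without the 3 pancreas-rich arrays the 5 lower members stayed called, and Prdx4 was at -2.61.

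Prdx5 stood in opposite order in the treatments. In ADSC mice its level was lower in inflammatory cells, at 3.50 ± 0.12 against 4.09 ± 0.14 in liver (SD, n = 4 each), a difference of -0.59 ± 0.18 (SE, limma adjusted p = 0.00665). In PBS mice it was higher, at 5.25 ± 0.37 in inflammatory cells and 4.08 ± 0.09 in liver (SD, n = 4 each), a difference of 1.17 ± 0.18 (SE, limma adjusted p = 2.09e-05). In neither treatment did the arrays of the sample types overlap. Between the sample types limma called 78.5% of all genes in ADSC mice and 75.8% in PBS mice. The value of 0.29 over both treatments averages the differences in ADSC and PBS mice, which were not themselves rerun under the alternatives. The average ran from 0.12 to 0.69 under the alternatives, and its call held with 11 of 30. It was lost with the others, among them the 75th percentile over spots in place of probes (0.28, limma adjusted p = 0.051). By slide the average was 0.62, 0.47, 0.32, -0.78 and 1.43 on slides 1 to 5, which hold the treatments in different proportions.

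Prdx1, Prdx3, Prdx4 and Prdx6 were lower in inflammatory cells within each treatment. With Prdx5 this made 5 members lower in ADSC mice, where 33% of all genes were called lower, and 4 lower and 1 higher in PBS mice, where 30.8% were lower and 45.1% higher. In ADSC mice the differences were -2.76 for Prdx1, -2.17 for Prdx3, -2.68 for Prdx4 and -1.75 for Prdx6. In PBS mice they were -1.86 for Prdx1, -1.67 for Prdx3, -1.95 for Prdx4 and -1.32 for Prdx6. These 4 were below 0 on all 5 slides, from -1.06 to -2.71 for Prdx1 and from -0.68 to -2.88 for Prdx4. Prdx2 was the member closest to its liver level, at -0.49 in ADSC mice and -0.56 in PBS mice, called in neither (limma adjusted p = 0.117 and 0.0748). Its call over both treatments was lost with normexp and quantile normalization (-0.18, adjusted p = 0.305) and with the percentile over detected probes (-0.20, adjusted p = 0.355), and on slide 5 it was at 0.02. In liver, red cell genes had summed signals of 22.5 to 67.6, and in inflammatory cells of 997 to 4290, and their part in the Prdx2 level was not tested.

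**Figure D4:**
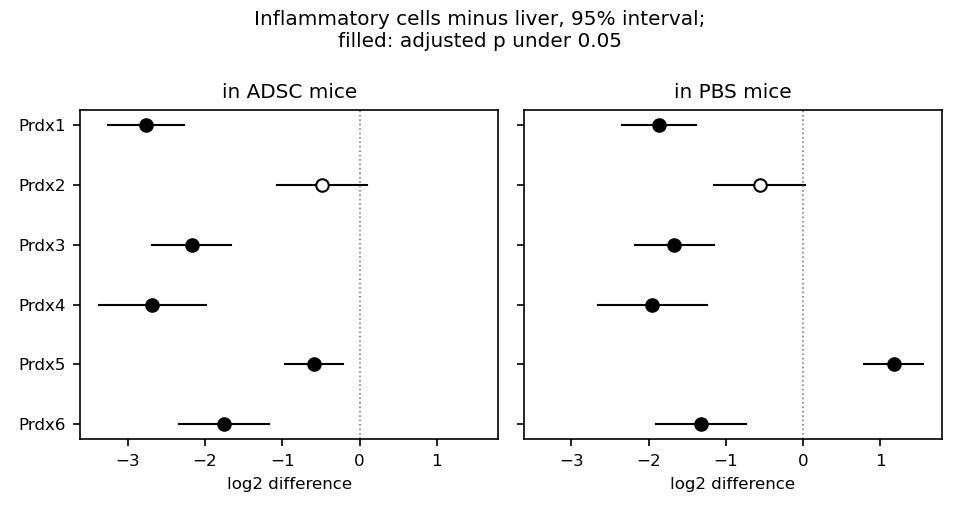
Log2 difference of inflammatory cells minus liver for each peroxiredoxin (rows), in ADSC mice and in PBS mice, with 95% intervals; filled points have an adjusted p under 0.05. Prdx5 is at -0.59 in ADSC mice and at 1.17 in PBS mice, while Prdx1, Prdx3, Prdx4 and Prdx6 are below -1.3 in both.

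The order of the 4 group means, taken as a description, was the same for Prdx1, Prdx3, Prdx4 and Prdx6. Both liver groups were above both inflammatory cell groups, and the exact permutation test separated PBS livers from PBS inflammatory cells (p = 0.0286, the smallest possible) but not the treatments within a sample type (exact p from 0.0571 to 0.6). For Prdx2 no neighbours in the order were separated (exact p from 0.371 to 0.743). For Prdx5 the order was PBS inflammatory cells at 5.25, ADSC livers at 4.09, PBS livers at 4.08 and ADSC inflammatory cells at 3.50. The livers were not separated from each other (exact p = 0.914), and each of the other neighbouring pairs was (exact p = 0.0286). The share of all genes separated by this test was not counted. In PBS mice limma called 75.8% of 22145 genes between the sample types, so a difference between them is common.

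Members moved together to different degrees between arrays of a sample type. Over the 8 inflammatory cell arrays, which span both treatments, Pearson's r was 0.94 between Prdx1 and Prdx3, 0.78 between Prdx3 and Prdx4, and -0.93 between Prdx2 and Prdx6. Over the 8 livers all 15 pairs were positive, from 0.58 for Prdx5 and Prdx6 to 0.96 for Prdx1 and Prdx4, and PBS 12 was low in most of them. Among 9039 genes above background on all arrays, those most like Prdx5 in both sample types were Cks2 (r = 0.93 over 8 inflammatory cell arrays and 0.93 over 8 livers), Mrpl33 (0.91 and 0.98) and Ceacam1 (0.93 and 0.89). For Prdx3 they were Chchd5 (0.96 and 0.99), Mrpl24 and Hint1, for Prdx1 Atp5pb (0.96 and 0.95), Swi5 and Glrx3, for Prdx4 Gcat (0.94 and 0.94), Idh1 and Slc16a7, and for Prdx2 Slc37a4 (0.87 and 0.87), Slc46a3 and Memo1. For Prdx6 the most alike was Prdx6b, an intronless copy of Prdx6 (0.98 and 0.97), followed by Mul1 and Bri3. The probes of these copies may pick up each other's transcripts, so Prdx6 and Prdx6b are not told apart with certainty. All these correlations share arrays and scaling and are given as descriptions.

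Prdx2 and Prdx6 had further probes. The 10 spots of the main Prdx2 probe differed within an array by an SD of 0.022 to 0.07 on the log2 scale, so spot noise is small beside the range of 4.44 to 5.89 over inflammatory cell arrays. The other 2 Prdx2 probes were also lowest in ADSC 7 among the inflammatory cells, at 1.35 and 1.07. Their differences were -0.03 and 0.04 after ADSC in inflammatory cells, and -0.56 and -0.85 for inflammatory cells against liver. The second Prdx6 probe was highest in ADSC 7 of the inflammatory cell arrays, at 2.61, like the main one, with differences of -0.46 after ADSC in inflammatory cells and -1.79 against liver. The third Prdx6 probe was well above background on 5 of 16 arrays and is not read further. Prdx1, Prdx3, Prdx4 and Prdx5 have 1 probe each, so the Prdx5 fall rests on 1 probe.

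The enzymes that serve the peroxiredoxins were read from lists of 59 redox genes. In inflammatory cells, 5 of 53 tested genes were called, all lower after ADSC, with a median over the 53 of -0.27. Over all 20167 genes 1.09% were called lower, with a median of 0.03. Txn1, the cytosolic thioredoxin that reduces most peroxiredoxins, had 4.22, 4.04, 3.94 and 4.05 in ADSC 7 to 10, against 5.09, 5.49, 5.72 and 4.90 in PBS 11 to 14. The groups did not overlap, and the difference was -1.24 ± 0.23 (SE, limma adjusted p = 0.0323). It was the 1 called gene of 10 in the thioredoxin system (median -0.43). The next smallest p-values of the list were those of the thioredoxin reductase Txnrd3, at 0.69, and of Txndc12, at -0.65, neither called (adjusted p = 0.17 and 0.184). The reductase Txnrd1 was at -0.56 and the thioredoxin inhibitor Txnip at -0.29, neither called (adjusted p = 0.451 and 0.697).

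Of 8 genes of glutathione metabolism and glutaredoxins, 2 fell (median -0.19). Gsr, glutathione reductase, had 1.65, 1.80, 1.61 and 1.51 in ADSC 7 to 10, against 3.62, 4.21, 3.2 and 3.05 in PBS 11 to 14, a difference of -1.88 (limma adjusted p = 0.0102). Glrx, glutaredoxin, had 1.68, 0.54, 0.94 and 0.89 in ADSC, against 2.85, 3.8, 3.07 and 2.41 in PBS, a difference of -2.02 (adjusted p = 0.0186). Neither gene's groups overlapped. G6pdx, which makes NADPH in the pentose phosphate pathway, fell by 1.85 (adjusted p = 0.019) and was the 1 called gene of 7 in the NRF2 list (median -0.56). Nfe2l2, which encodes NRF2, was at -1.0 and its target Hmox1 at -0.56, neither called (adjusted p = 0.0975 and 0.289).

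Among 10 tested sources of hydrogen peroxide, 1 fell (median -0.94): Cyba, a subunit of the phagocyte NADPH oxidase, at -1.0 (limma adjusted p = 0.035). Its catalytic subunit Cybb was at -1.03, not called (adjusted p = 0.0672). No gene was called among 5 of peroxiredoxin repair (median 0.27), 6 glutathione peroxidases (-0.17), 3 of the list of superoxide dismutases and catalase (-0.23) and 6 of oxidative folding in the endoplasmic reticulum (-0.32). Of these, Srxn1 (sulfiredoxin, which repairs overoxidised peroxiredoxins) was at -0.03, Sesn1 at 0.52 and Sesn3 at 0.54. Gpx1 was at -0.07, Gpx3 at -1.21 and Gpx4 at -0.48, Cat (catalase) at 0.78, Sod1 at -0.23 and Sod2 at -0.68, and Ero1a at -0.94 and Qsox1 at -0.67.

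The redox calls depended on single arrays, and so did the calls over all genes. Without ADSC 9 or ADSC 10 1 redox gene was called, without PBS 12 2, without PBS 11 or ADSC 8 3, and without PBS 13 8. Over all genes the 246 calls became 71, 89 and 80 without ADSC 9, ADSC 10 and PBS 12. They became 208, 138 and 277 without PBS 11, ADSC 8 and PBS 13. Without the 3 pancreas-rich arrays 0 redox genes were called, and 0 over all genes. Neutrophil genes were lower in the same arrays as Txn1, Gsr, Glrx, G6pdx and Cyba, with the values given above, and their part in these falls was not tested.

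In liver 0 of 55 redox genes were called in limma, with a median of 0.03, and 2 had an unadjusted p under 0.05. Txn1 was at 0.22, Gsr at -0.11, G6pdx at -0.29 and Glrx at -0.46 (adjusted p = 0.998 each). The difference between the sample types was not called for any of the 55, 14 of which had an unadjusted p under 0.05. It was -1.46 for Txn1 and -1.77 for Gsr (adjusted p = 0.0805 each). So a redox gene called in inflammatory cells and not in liver is not shown to differ between them.

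**Figure D5:**
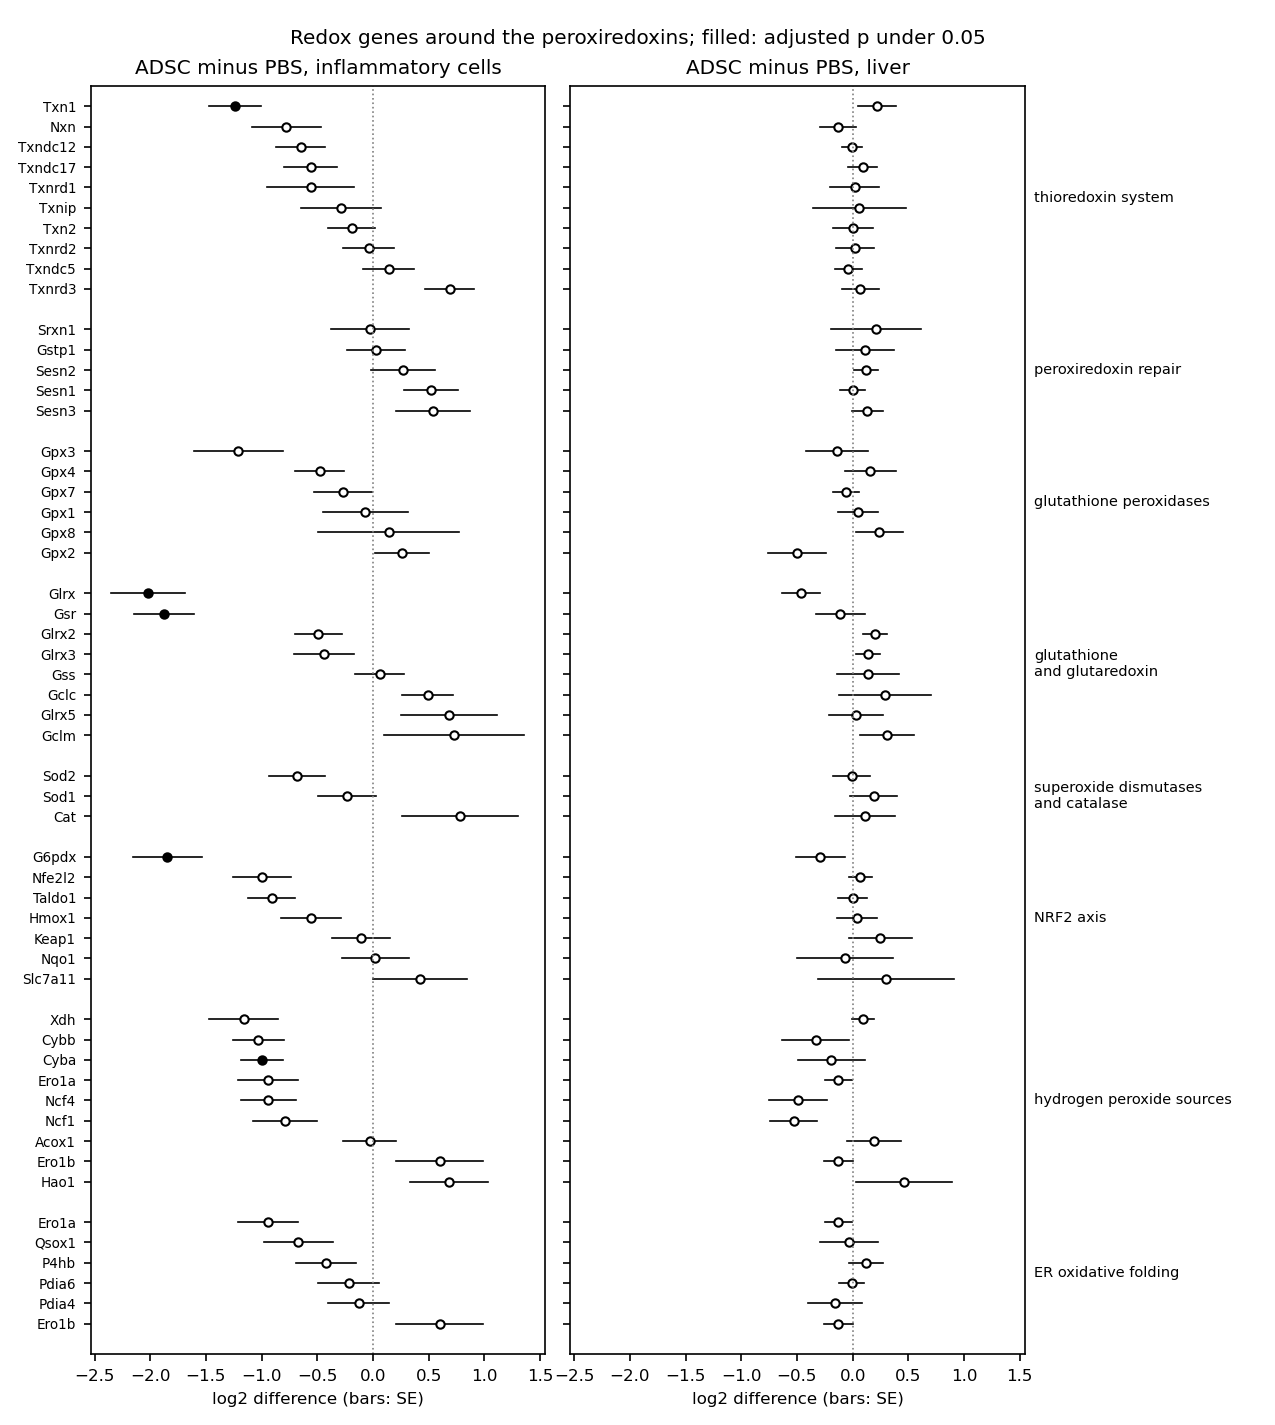
Log2 difference of ADSC minus PBS with its SE for genes of 8 redox lists, in inflammatory cells and in liver; filled points have an adjusted p under 0.05. The filled points are Txn1, Glrx, Gsr, G6pdx and Cyba, all in inflammatory cells and all below 0.

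Against liver, inflammatory cells had 36 of 55 redox genes lower and 14 higher (median -1.25). Over all genes 35.2% were lower and 49% higher (median 0.36), and 84.2% were called in either direction, so a call in itself is common here. Gss, the last enzyme of glutathione synthesis, was at -4.11, Gstp1, the partner of Prdx6, at -3.33, Srxn1 at -3.22 and Nqo1 at -3.15, all called. Higher were Hmox1 at 1.53 and Ero1a at 1.88, also called. In the thioredoxin system 8 of 10 were lower and 1 higher, led by Txnrd2, the mitochondrial thioredoxin reductase, at -2.34, Txndc5 at -1.57 and Txndc12 at -1.36. Of 6 glutathione peroxidases 5 were lower, with Gpx7 at -2.68, Gpx3 at -4.13 and Gpx4 at -2.10.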

How the data were processed

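Each sample has 1 scanner file. Per the file headers, its processed signal is a linear intensity from which Agilent Feature Extraction 10.5.1.1 had taken off the background, and no step scaled the arrays to each other. The deposited value table holds the same intensity values (largest relative difference 0), so scale, centring and direction are known. Spots marked as outliers were left out, spots of a probe were averaged, and each array's 75th percentile over probes was subtracted on the log2 scale. Symbols came from the GRCm38.p6 annotation by accession (23374 of 41174 probes); array and annotation builds differ, so no probe positions are given. A gene entered a test if 4 or more of the fitted arrays had its brightest probe well above background.

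R 4.3.3 with limma 3.58.1 (lmFit, eBayes, Benjamini-Hochberg over all genes, threshold 0.05) compared ADSC with PBS in the 8 arrays of a sample type. The difference and the sample type contrasts used 1 fit of 16 arrays. The fits were tested on simulated data. Dixon's ratio (critical value 0.829 for 4 arrays) served to find outlying arrays. Named genes are the 6 members, of each redox list the 3 smallest p-values per comparison, set partners such as Txn1 and Nfe2l2, and for each member the 3 genes with the highest lower r of the 2 sample types. The members, lists and motifs were chosen with earlier results of these data known, so no list is independent support. The extraction protocol in the labels names a tumor and blood, so the isolation of the inflammatory cells is unclear. Protein sequences were not used here, and 1 gene of the redox lists is counted but not reported singly. The number of arrays limits the precision. Alternatives were background correction by normexp (offset 50), quantile normalization, other percentiles, filters, probes, slide or scan day blocks, array weights, and leaving out arrays.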

Additional observations from a re-analysis of the deposited data

Results flagged for a closer look

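Of 24 gene and group combinations examined with Dixon's ratio, 4 had an array apart from the other 3, and chance gives about 1 in 20. Prdx4 in inflammatory cells ADSC 10 was at 2.26, with the other ADSC arrays at 1.28 or below. Prdx4 in inflammatory cells PBS 13 was at 3.03, with the other PBS arrays at 1.68 or below. Both arrays are rich in pancreas transcripts, with summed signals of 4890 in ADSC 10 and 4850 in PBS 13. PBS 11, with a sum of 1130, had the lowest Prdx4 of its group, 1.41. Prdx6 in inflammatory cells ADSC 7 was at 5.22, with the other ADSC arrays at 4.24 or below. ADSC 7 had the lowest red cell gene mean of its group. Among PBS inflammatory cell arrays that mean was lowest in PBS 13, at 0.89, which had their lowest Prdx6, 4.29. The summed red cell signal of PBS 13, 1780, lay between the 1970 of PBS 11 and the 1230 of PBS 12. The part of pancreas or red cell transcripts was not tested. Prdx6 in liver PBS 12 was at 5.32, with the other PBS livers at 6.12 or above.

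The ADSC effect on Prdx5 differed between inflammatory cells and liver by -1.76 on the log2 scale in the test of the difference itself (limma adjusted p = 0.0272).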

How the results depend on the processing

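Prdx5 kept its direction in inflammatory cells, and in the difference between sample types, under all alternatives run, from -1.96 to -1.52 and from -1.96 to -1.46. In inflammatory cells 1 member was called, and 0 with slide as a fixed block, 0 without the 3 pancreas-rich arrays and 2 with array weights (leaving out 1 array: 1 to 1). In liver 0 were called, and 1 with array weights (leaving out 1 array: 0 to 0). For the difference 1 was called, and 0 with the percentile over detected probes, no filter, slide or scan day as a fixed block, or without the pancreas-rich arrays, 2 with array weights, and 0 to 1 when leaving out 1 array. Over all genes the 7 calls of the difference became 1 with detected probes and 2027 with array weights. They became 0 with no filter, slide or scan day as a fixed block, or without the pancreas-rich arrays, and 0 to 46 when leaving out 1 array. The replicate numbers are shared between sample types, and whether equal numbers mean the same mouse is not given. Deviations from group means had r of -0.14 to 0.16 for the 8 numbers, 2 above 0.1. Such values cannot decide this, since liver and isolated cells of 1 mouse need not vary together. A fixed replicate block gave 0 called members in the difference (Prdx5 -1.76, limma adjusted p = 0.167), and a random replicate block kept 1. Over all genes the fixed block called 0 and the random block 6. Members called between sample types were 5 to 6 under all alternatives. The 5 redox calls became 10 with normexp, 3 with the percentile over detected probes, 2 with no filter, 8 with probes above background on every array, 0 and 12 with slide as a fixed and random block, 3 with scan day, 25 with array weights (5 higher and 20 lower), 0 without the pancreas-rich arrays and 1 to 8 when leaving out 1 array. Counts over all genes in inflammatory cells were 246, and 376 with normexp, 140 with detected probes, 115 with no filter, 0 and 819 with slide as a fixed and random block, 161 with scan day, 5147 with array weights, 0 without the pancreas-rich arrays and 71 to 504 when leaving out 1 array. Values of members that were not called changed sign, and the cause was not tested. Prdx2 in inflammatory cells was at -0.01 with normexp and with scan day, -0.10 with slide as a fixed block and -0.03 on probe A_52_P893440. In liver it was at -0.02 with quantile normalization, -0.01 with the fixed slide block, -0.11 on that probe and -0.03 without PBS 12. Its difference was at -0.03 with normexp, -0.70, -0.06 and -0.47 with slide fixed, slide random and scan day, -0.03 on probe A_52_P550034, and -0.07 to 0.42 without 1 array, at or below 0 without liver PBS 11 or inflammatory cells PBS 12, ADSC 9 or ADSC 10. Prdx5 in liver was at -0.07 with normexp, -0.06 with quantile, 0 with detected probes, -0.15 and -0.02 with slide fixed and random, and -0.03 to 0.07 without 1 liver, below 0 without PBS 12, PBS 13, ADSC 8 or ADSC 9. With the fixed slide block Prdx1, Prdx3 and Prdx4 in liver were at 0 and Prdx6 at -0.40, with scan day Prdx6 was at -0.21, and without 1 liver at -0.06 (PBS 12) to 0.26. The Prdx6 difference was at 0.19 and 0.16 with slide and scan day, and 0.46 on the dim probe A_52_P388359. Scaling moved the median of all genes in inflammatory cells to 0.15 with detected probes. Limits are 4 arrays per group, 1 probe for Prdx5, and slides that hold few arrays of both treatments.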
